A study of Mus musculus with 6 samples.

Results

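The 37 immune lineage genes examined here are genes of leukocyte surface and adaptor proteins, monocyte and macrophage markers, blood-lineage transcription factors, lymphocyte markers, cytokines and chemokines, and a group of widely expressed regulators of inflammation. They were taken as a list of gene names, and a peak belonged to a gene when the peak table named that gene as its nearest. The control table held 113 such peaks, of 46988 in all, and named 26 of the 37 genes. The detrained table held 110, of 40721, and named 29. The share of genes with no peak was 29.7% in the control table, with 11 genes missing, and 21.6% in the detrained table, with 8 genes missing. Across RefSeq protein-coding genes, 57.2% were named in the control table and 55.9% in the detrained table.

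The data are H3K27ac chromatin immunoprecipitation sequencing of whole quadriceps muscle. Mice were wild type and of strain C57BL/6, described in the methods as C57BL/6J males 8 weeks old at the start, and each H3K27ac library came from 1 quadriceps. The control group was sedentary in individual cages, and the detrained group had a running wheel for 4 weeks and was then rested for 72 h before harvest. Each group had 2 H3K27ac libraries, named C2 and C3 in control and Ex1 and Ex2 in detrained muscle, and 1 input library, whose strain labels read C57BL/7 and C57BL/8. The H3K27ac libraries held 20805019 to 22400894 tags. The control input held 10812470 tags and the detrained input 21298438.

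Acetylation of lysine 27 on histone H3 marks active promoters and enhancers. Resting skeletal muscle consists mainly of multinucleated fibres, with resident macrophages, endothelial cells, fibroblasts and few lymphocytes between them. Spi1 encodes PU.1, the factor that opens macrophage enhancers, and its targets include Csf1r, the receptor that macrophages need to survive. The NF-kB family, its inhibitor encoded by Nfkbia, and Stat3 carry cytokine signals in most cell types, fibres included. In a bulk tissue, fewer cells of a type and less acetylation per cell cannot be told apart.

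The authors called 1 peak list per group on its pooled H3K27ac libraries against that group's input, and the 2 lists were normalized separately. No test between groups was therefore made, and the comparisons below are descriptions of 2 libraries against 2. Pooled tags are the tags of both libraries in a peak per 10000000 total tags, and density is the estimated tags of 1 library per kb of peak per 10000000. A gene start was counted as marked when a peak lay within 1 kb of a GENCODE start of a protein-coding transcript, whatever gene the peak was named for.

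Of the 37 genes, 22 had a marked start in the control list and 28 in the detrained list. Across 21827 protein-coding genes the shares were 54.7% and 54.1%. A total of 21 genes were marked in both lists, 8 in neither, 1 in the control list alone and 7 in the detrained list alone. Those 7 were Ptprc, Itgb2, Cd14, Itgam, Itgax, Ccr2 and Tnf, and the 1 was Cd163, the haemoglobin scavenger receptor of resident macrophages. Of all protein-coding genes, 2.51% were marked in the detrained list alone and 3.08% in the control list alone.

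The promoters below show the sequence on which these marks lay, for 2 genes marked in the detrained list alone and 3 marked in both lists. Each is the 250 bases before the start in RefSeq, build GRCm38.p6, written 5′ to 3′ on the gene's strand. Capitals mark matches, on either strand, to the NF-kB motif or to the STAT motif TTCNNNGAA. The positions are chr7:128062390-128062639 on the plus strand for Itgam, chr17:35202008-35202257 on the minus strand for Tnf, chr8:120736108-120736357 on the plus strand for Irf8, chr11:53769764-53770013 on the plus strand for Irf1, and chr12:55492648-55492897 on the minus strand for Nfkbia.
Itgam: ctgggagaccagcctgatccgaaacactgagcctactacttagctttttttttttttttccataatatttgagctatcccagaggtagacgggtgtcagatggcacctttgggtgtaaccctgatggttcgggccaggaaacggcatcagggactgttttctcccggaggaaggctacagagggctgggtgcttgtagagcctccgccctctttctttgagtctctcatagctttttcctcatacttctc
Tnf: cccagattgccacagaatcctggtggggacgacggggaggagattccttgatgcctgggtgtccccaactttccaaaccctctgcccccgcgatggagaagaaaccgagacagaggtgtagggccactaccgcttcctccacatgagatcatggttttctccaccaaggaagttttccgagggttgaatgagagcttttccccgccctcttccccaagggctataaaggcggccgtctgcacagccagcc
Irf8: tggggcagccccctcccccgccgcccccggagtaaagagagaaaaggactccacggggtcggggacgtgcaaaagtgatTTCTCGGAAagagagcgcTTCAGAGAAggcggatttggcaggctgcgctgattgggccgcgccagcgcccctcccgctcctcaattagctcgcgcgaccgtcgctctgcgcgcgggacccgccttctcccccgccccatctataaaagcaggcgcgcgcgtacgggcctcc
Irf1: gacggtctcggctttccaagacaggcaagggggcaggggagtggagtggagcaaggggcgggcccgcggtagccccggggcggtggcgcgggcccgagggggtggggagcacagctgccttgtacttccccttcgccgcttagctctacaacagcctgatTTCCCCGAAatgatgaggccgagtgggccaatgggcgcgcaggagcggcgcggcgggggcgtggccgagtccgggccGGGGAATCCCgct
Nfkbia: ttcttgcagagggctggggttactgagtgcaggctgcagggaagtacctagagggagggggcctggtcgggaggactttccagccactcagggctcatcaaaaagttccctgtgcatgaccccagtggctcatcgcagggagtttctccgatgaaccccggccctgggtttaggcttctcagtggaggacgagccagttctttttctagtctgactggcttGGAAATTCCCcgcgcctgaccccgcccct

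The detrained peak covered 228 of the 250 bases at Itgam and 238 at Tnf, and no control peak reached either window. At Irf8, Irf1 and Nfkbia both lists covered all 250 bases. Irf8 held 2 STAT matches and no NF-kB match, Irf1 held 1 of each, and Nfkbia held 1 NF-kB match. Promoters were found in the RefSeq table for 28 of the 37 genes. The 9 without one were Csf1r, Spi1, Cd14, Itgb2, Ccl2, Tyrobp, Cd4, Nfkb1 and Tlr4. Over those 28, the NF-kB motif occurred in 2 (7.14%) and in 3.90% of 32851 promoters of the same length, and the STAT motif occurred in 2 (7.14%) against 7.02%. The PU.1 motif GAGGAAGT occurred in 0 of the 28, against 2.44% of all promoters. Only this exact sequence was searched, and Spi1 and Csf1r were not among the 28, so the count cannot say whether these genes hold PU.1 sites. The CEBP motif TTGCNNAA was found at Cd68 and Cd8a (9.56% of all promoters), the interferon response motif GAANNGAAA at Cd8a (6.31%), the AP-1 motif TGANTCA at Cd68 and Itgax (6.75%), and the RUNX motif TGTGGT at Cx3cr1, Lyz2, Runx3 and Lck (14.05%). GC content was 61.2% at the median over the promoters of the 15 genes with a marked start in both lists. It was 49.6% over those of the 5 genes marked in the detrained list alone, and 52.4% over all promoters. The mark could lie at another start or beside the promoter. The promoters of Lck and Itgax lay in no peak, that of Cd68 in no control peak and that of Laptm5 in no detrained peak.

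Leukocyte surface and adaptor genes differed in which list marked them. Ptprc, which encodes the pan-leukocyte phosphatase CD45, had no row in the control list, where the nearest peak to any of its starts was 170646 bp away. In the detrained list a peak of 41.0 pooled tags at chr1:138173880-138175293, centred 540 bp inside the gene in an intron, had densities of 36.3 in Ex1 and 22.5 in Ex2. Itgb2, the common beta chain of the leukocyte integrins, had a detrained peak centred 720 bp from its start at chr10:77530068-77532068, with 32.9 pooled tags and densities of 17.1 in Ex1 and 16.1 in Ex2. An intronic Itgb2 peak 14787 bp inside the gene was listed in both groups, at 29.3 and 32.1 in control and 31.2 and 36.8 in detrained libraries.

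Tyrobp, the DAP12 adaptor of myeloid receptors, carried a promoter peak in both lists, at chr7:30412255-30414699 in control. Its density was 30.7 and 28.0 in control and 30.7 and 26 in detrained libraries, and the groups overlapped (log2 change -0.05, SD within groups 0.14). Laptm5, a lysosomal protein of blood cells, also overlapped at its start, with 20.03 and 14.7 against 20.4 and 15.5. Of the 7 shared peaks of this class 1 separated, 6583 bp inside Laptm5, at 16.7 and 16.4 in control and 11.1 and 14.1 in detrained libraries (-0.41). Fcer1g, the Fc receptor gamma chain, was the densest of the group at 70.7 and 67.7 in control and 61.9 and 69.5 in detrained libraries. That peak, with listed lengths of 16831 bp and 10625 bp, was centred outside Fcer1g, so the tags cannot be assigned to it.

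Among 10 monocyte and macrophage genes, 5 starts were marked in control and 8 in detrained muscle. Both counts include Cd68, whose start peak was named for Mir1934 and also holds the start of Mpdu1. Cd14, the lipopolysaccharide co-receptor, had no control row and a detrained peak of 83.0 pooled tags, more than 99.0% of the detrained peaks that had no control overlap, with densities of 40.6 in Ex1 and 45.9 in Ex2. Itgam, the CD11b integrin chain, had a detrained peak at chr7:128062412-128063387 with 16.2 pooled tags, which also holds a start of the gene model Gm49368, so its tags cannot be assigned to Itgam alone. Itgax, the CD11c chain, had one at chr7:128127623-128129285 with 24.1. Ccr2, the receptor that draws monocytes from blood, had detrained peaks of 22 pooled tags centred 619 bp inside the gene, in an intron, and of 39.4 pooled tags centred 3978 bp from the start, in an exon. The stronger Ccr2 peak had densities of 13.4 in Ex1 and 11.7 in Ex2, near the bottom of the detrained list, at the 2.92 percentile. In the control list Itgam had 1 row, of 6.34 pooled tags and 3283 bp before the start, and Itgax had none.

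The 5 shared peaks named for macrophage genes overlapped between the groups. At Csf1r the intronic peak had densities of 27.8 and 20.8 in control (C2, then C3) and 26.7 and 22.7 in detrained libraries (Ex1, then Ex2). At Mrc1, the mannose receptor of resident macrophages, the start peak had 24.6 and 21.6 against 24.5 and 19.8, and at Lyz2, lysozyme of myeloid cells, 21.9 and 21.5 against 22.3 and 19.2. In all 5 C2 lay above C3 and Ex1 above Ex2, and in none did the groups separate. Cd163 kept its strongest peak in both lists, 16298 bp inside the gene, at 36.9 and 31.7 in control and 38.4 and 34.8 in detrained libraries, while its start peak of 17.2 pooled tags and a peak 3219 bp inside the gene of 38.5 were in the control list alone. Cx3cr1, the fractalkine receptor, had 1 control row of 9.05 pooled tags and none in detrained muscle.

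**Figure D1:**
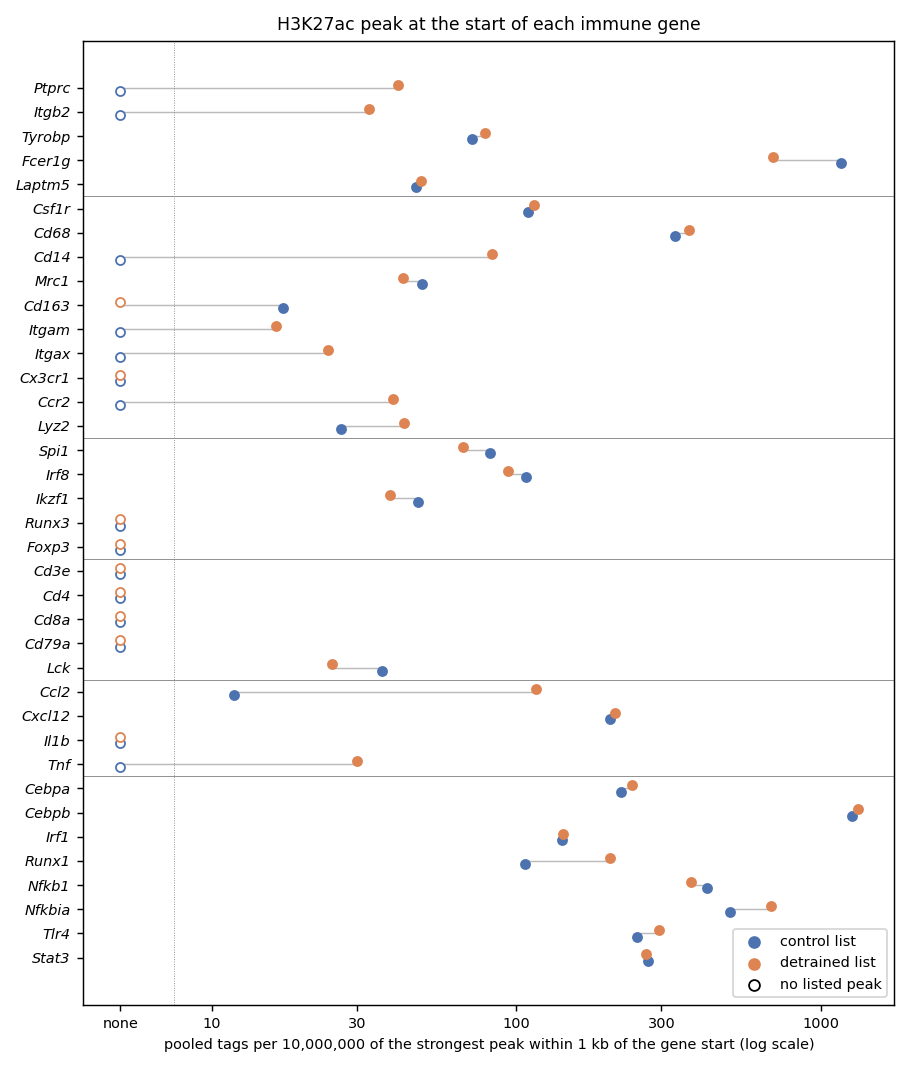
Pooled tags per 10000000, on a log scale, of the strongest peak within 1 kb of the start of each of the 37 genes, in the control list and in the detrained list. Open circles mark genes with no listed peak there, and 7 genes have a detrained mark alone against 1 with a control mark alone.

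The 8 marks found in 1 list alone had 16.2 to 83.0 pooled tags, and 7 of them lay below the median of their list, which was 45.5 in control and 57.9 in detrained muscle. The exception was Cd14. Among the 4650 protein-coding genes whose strongest start peak was under 100, 11.4% were marked in the detrained list alone and 13.9% in the control list alone. Of the 15 immune genes under the same limit, 7 (46.7%) were marked in the detrained list alone, 1 (6.67%) in the control list alone and 7 in both. A gene without a listed peak may still carry tags below the calling limit, and the tags of such places were not analysed here. The input against which peaks were called differed in depth between the groups, and its part in these calls was not tested. When only peaks 4-fold or more above input, at an adjusted p under 0.001, were kept, 4 starts were marked in the detrained list alone, namely Ccl2, Cd14, Itgb2 and Lyz2, and Ikzf1 was marked in the control list alone. Under that limit 2.79% of all protein-coding genes were marked in the detrained list alone and 1.88% in the control list alone.

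Lists of immune genes outside the 37 were counted in the same way. Of 21 other macrophage markers, 12 starts were marked in control and 15 in detrained muscle, with Fcgr3, H2-Ab1 and Mpeg1 in the detrained list alone and none in the control list alone. At 28 shared peaks of 9 of these genes, 10 (35.7%) had both detrained libraries below both control libraries and 4 (14.3%) above. Among all shared peaks the shares were 27.2% and 21.3%. Dense control peaks of these genes were at Fcgr3 (60.8 pooled tags per kb), Maf (60.7), which encodes a macrophage transcription factor, and Mpeg1 (33.5). In the detrained list the densest peaks of these 3 genes reached 57.3, 62.9 and 29.9. Of 9 granulocyte and mast cell markers, 0 had a control row and 1, Csf3r, had a detrained row. The 20 further genes of NF-kB and cytokine signalling were all marked in both lists. Among the context lists, Myh2 of muscle fibres and Myh11 of smooth muscle were also marked in the detrained list alone.

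Shared peaks of the blood-lineage transcription factors had lower densities in detrained muscle. Of 8 shared peaks at Spi1, Irf8, Ikzf1 and Runx3, 8 had a lower mean density in detrained libraries and 6 had both detrained libraries below both control libraries. Among all 26432 shared peaks 27.2% lay below in that way and 21.3% above. The median change was -0.40 on the log2 scale, against -0.03 for all shared peaks. The 8 peaks come from 4 genes, and those of 1 gene are not independent.

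The largest difference was at a domain about 12.1 kb before the start named for Spi1, at chr2:91081386-91087830 in control and chr2:91078119-91090329 in detrained muscle. Its density was 76.0 and 74.0 in control and 46.1 and 42.8 in detrained libraries, with no overlap (log2 change -0.76, SD within groups 0.06). The deposited annotation calls the domain intergenic, while the RefSeq range of Spi1 begins inside it, at position 91082374 of chromosome 2. The pooled tags of the same domain were 483.1 in control and 541.5 in detrained muscle, and the listed length was 6444 bp and 12210 bp, so the direction turned on the tags-per-peak scale (0.17). A separate control peak at chr2:91088649-91090819, with 39.4 pooled tags, also overlapped the detrained domain, so the 2 listed regions are not alike in extent. At the Spi1 start the groups overlapped, at 33.5 and 22.8 in control and 30.1 and 20.9 in detrained libraries.

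Irf8, a factor for monocyte and dendritic cell development, had 4 shared peaks, and all 4 lay lower in both detrained libraries. Its start peak had densities of 62.1 and 54.8 in control and 50.1 and 49.1 in detrained libraries (log2 change -0.23). The peak 29753 bp downstream of the start had 27.9 and 32.1 against 22.7 and 21.99 (-0.42), and it was lower on tags per peak as well (-0.33). The intronic peak 13482 bp from the start had 50.7 and 53.2 against 39.1 and 38.8 (-0.41), but held more pooled tags in detrained muscle, 129 against 115, over a longer listed region. Ikzf1, the lymphoid factor Ikaros, had 32.1 and 22.1 in control and 18.4 and 18.8 in detrained libraries at its 5′ UTR peak (-0.51), with 47.7 and 38.5 pooled tags. Runx3 had no marked start, and its distal peak 63383 bp before the start overlapped between groups, with C3 high at 35.03 against 19.0 in C2, and the detrained libraries had 21.3 and 18.1. On the tags-per-peak scale, 6 of the 8 peaks remained lower. Foxp3, the factor of regulatory T cells, had no row in either list.

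**Figure D2:**
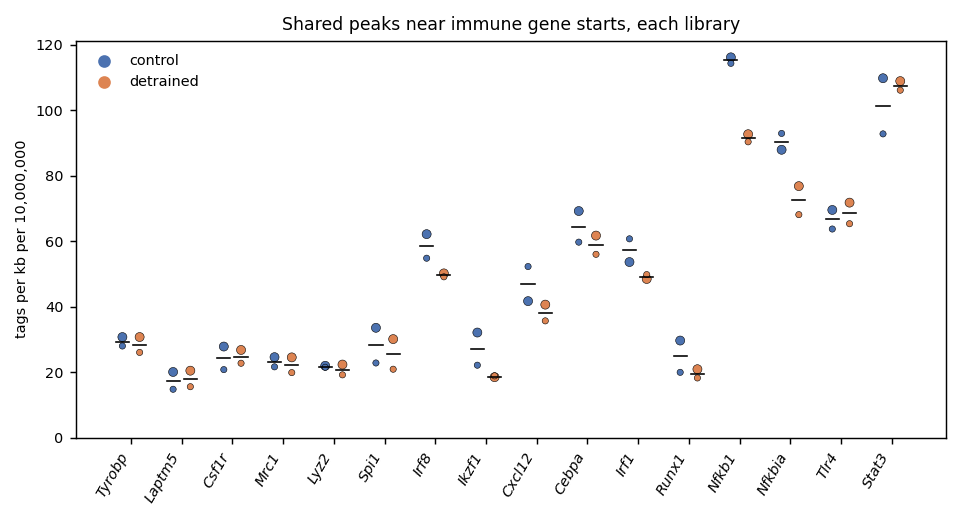
Density, in tags per kb per 10000000, in each library at the peak of 16 genes that was shared between the lists and centred within 2 kb of the start; large points are C2 and Ex1, small points C3 and Ex2, and lines are the means. Macrophage genes such as Csf1r and Lyz2 sit between 19.2 and 27.8, and Nfkb1 and Irf8 have both detrained libraries below both control libraries.

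Lymphocyte markers were nearly unmarked. Cd4, the helper T cell co-receptor, Cd8a, the cytotoxic T cell co-receptor, Cd79a of the B cell receptor and the T cell kinase Lck had no row in either list. Cd3e, a chain of the T cell receptor complex, had 1 peak in each list, 10018 bp inside the gene in control, with densities of 15.3 and 16.4 in control and 16.7 and 14.2 in detrained libraries. A peak within 1 kb of a downstream start of Lck, named for Mir8119, held 36.2 pooled tags in control and 24.8 in detrained muscle, while the promoter of Lck in RefSeq lay in no peak. Of 14 other lymphocyte markers, 8 (57.1%) were named in the control list and 7 (50%) in the detrained list, beside 57.2% and 55.9% of protein-coding genes. Among them 1 start was marked in each list, Cd28 in control and Cd79b in detrained muscle. The densest control peaks of these 14 genes were at Cd28 (71.8 pooled tags per kb), Il2ra (44.2), Cd247 (38.2) and Zap70 (25.6).

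Cytokine and chemokine genes were marked unevenly. Cxcl12, a chemokine made by stromal and endothelial cells that retains leukocytes, had 14 control and 9 detrained peaks, the most of its group. At its start the density was 41.7 and 52.2 in control and 40.6 and 35.6 in detrained libraries, with no overlap between groups (log2 change -0.29) and similar pooled tags, 203.4 and 212.0. Distal peaks differed in both directions. The one 187980 bp before the start had 25.3 and 24.7 in control and 28.4 and 34.98 in detrained libraries, and the one 10973 bp before it had 19.9 and 21.8 against 18.5 and 16.0. Ccl2, which attracts monocytes through Ccr2, had 3 control peaks with 142 pooled tags over 4222 bp in all and 5 detrained peaks with 305 over 11652 bp, so the mean was higher in control, at 33.5 pooled tags per kb against 26.2. Near the Ccl2 start the control list had an intergenic peak of 75.3 pooled tags centred 2516 bp before the start, at densities of 39.8 and 30.2, and an intronic one of 11.8, at 24.5 and 23.6, and the detrained list had 1 peak of 115.9 that overlapped both, at 33.8 in Ex1 and 25.5 in Ex2. Tnf, an inflammatory cytokine, had a detrained peak of 30.1 pooled tags at chr17:35200487-35202245, centred 641 bp inside the gene, with 17.6 in Ex1 and 16.96 in Ex2, and no control row. Il1b, encoding interleukin 1 beta, was marked only at distal sites, with 38.9 pooled tags over 2141 bp in control and 68.8 over 4459 bp in detrained muscle, a mean of 18.2 and 15.4 pooled tags per kb.

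The widely expressed regulators were marked at all 8 starts in both lists. Nfkb1, which encodes the p50 subunit, had a start peak at the 98.7 percentile of control peaks by density, and its values of 116 and 114 in control and 92.6 and 90.3 in detrained libraries did not overlap (log2 change -0.33, SD within groups 0.02). Its pooled tags were 423.3 and 376.5. Nfkbia had a start peak of 87.9 and 92.9 in control and 76.8 and 68.1 in detrained libraries (-0.32), over listed lengths of 5594 bp and 9500 bp, and its pooled tags were 505.2 in control and 686.4 in detrained muscle. Irf1, an interferon-responsive factor, had 53.6 and 60.7 in control and 48.4 and 49.8 in detrained libraries at its promoter (-0.22), with pooled tags of 141.2 and 143.0. The other shared Irf1 peaks, farther from the start, changed the other way (0.07 to 0.23). Over the 30 shared peaks of 7 of these regulators, 14 had a higher and 16 a lower mean density in detrained muscle, with a median of -0.02.

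The largest difference towards higher density in detrained muscle among the shared peaks of the 37 genes was 46143 bp from the start of Nfkbia, in an intergenic peak on chromosome 12, where the density was 46.2 and 48.8 in control and 65.9 and 69.4 in detrained libraries (0.51). Its pooled tags barely differed, 131 in control and 128 in detrained muscle, over listed lengths of 2764 bp and 1900 bp. An intronic peak 87100 bp inside Runx1, a regulator of blood stem cells, had 23.8 and 28.6 in control and 37.9 and 36.1 in detrained libraries (0.50), with 83.0 and 170 pooled tags. The next was a Cxcl12 peak 30949 bp before the start, at 18.9 and 25.3 against 31.3 and 25.4 (0.37), where C3 and Ex2 nearly touched and the pooled tags were 13.6 and 13.9 over listed lengths of 627 bp and 500 bp. Stat3, the factor downstream of interleukin 6, overlapped between groups at its start, at 110 and 92.7 in control and 109 and 106 in detrained libraries. Tlr4, the lipopolysaccharide receptor, had 69.5, 63.7, 71.7 and 65.3, and Cebpa, a factor of fat and myeloid cells, 69.2, 59.7, 61.7 and 56.0.

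Over all 58 shared peaks of 22 genes the median change was -0.07 on the log2 scale (SD between libraries of a group 0.06), against -0.03 for all shared peaks. Of the 58, 9 (15.5%) had both detrained libraries above both control libraries and 18 (31.0%) below, beside 21.3% and 27.2% of all shared peaks. None of the 58 was at least 2-fold apart without overlap, and of all shared peaks 0.0151% were so in the higher direction and 0.0605% in the lower. The sign of the median was not stable. On tags per peak it was 0.11, where the median log2 ratio of listed length, detrained over control, was also 0.11, and without Ex2 it was 0.01.

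**Figure D3:**
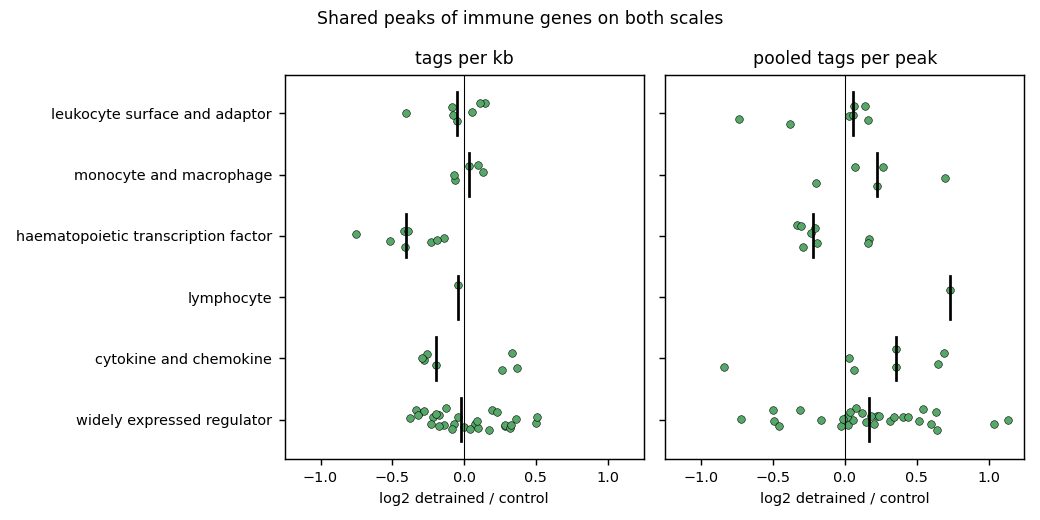
Change at each of the 58 shared peaks of the immune genes, as log2 of detrained over control, by class, on the density scale at left and on the pooled-tag scale at right, with the class median as a bar. The blood-lineage transcription factors lie below 0 on the density scale and 6 of 8 lie below 0 on the pooled-tag scale, while the classes other than the lymphocyte genes, which have 1 peak, lie on both sides.

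Peaks of the 37 genes lay mainly outside promoters. In control 5 of 113 (4.42%) were annotated to a promoter, 44 (38.9%) to an intron and 60 (53.1%) were intergenic, and all control peaks had 11.2%, 50.8% and 30.7%. In detrained muscle 3 of 110 (2.73%) were at a promoter, against 12.6% of all peaks. The distance to the named start was at most 1 kb for 15.9% of the control and 17.3% of the detrained peaks, against 20.5% and 23.4% of all peaks. Of the peaks of these genes, 36 in control (31.9%) and 37 in detrained muscle (33.6%) had no overlap in the other list, where the shares for all peaks were 27.9% and 18%. Unmatched peaks of the immune genes were weak, with a median of 14.9 pooled tags in control and 18.3 in detrained muscle, against 51.4 and 60.2 for those with an overlap. Unmatched peaks of all genes had nearly the same medians, 14.5 and 18.3.

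Naming each peak for its nearest gene hid marks at several members. Cebpb, a factor induced by inflammation, had no row, yet its gene lay inside a domain named for A530013C23Rik, at chr2:167686916-167698791 in control, with 1264.6 pooled tags and densities of 102 and 111 in control and 102 and 104 in detrained libraries. Cd68, a lysosomal protein of macrophages, lay under a peak named for Mir1934 with 333.3 pooled tags in control and 368.4 in detrained muscle, which also holds the start of Mpdu1, a widely expressed gene, so its tags cannot be assigned to Cd68. Of the Mrc1 intron peaks named for Mir511, the strongest in the control list held 169.0 pooled tags over 5659 bp in control and 32.0 over 1529 bp in detrained muscle, at densities of 27.8 and 32.1 against 17.4 and 24.5. Another, nearer the end of the gene, held 28.1 pooled tags in control and 36.6 in detrained muscle, at 30.4 and 30.3 against 30.4 and 32.6. The stronger intronic Csf1r peak named for Mir6983 held 74.2 pooled tags over 3650 bp in control and 45.4 over 2325 bp in detrained muscle, and its densities overlapped, at 23.0 and 17.7 against 20.9 and 18.4.

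Signal at cell-type-restricted immune genes differed between libraries of the same group. The 25 genes of the leukocyte, macrophage, transcription factor and lymphocyte classes had peaks named for 16 in control and 18 in detrained muscle. Of these, 30 of 39 control peaks (76.9%) had a higher deposited log2 value in C2 than in C3, against 43.1% of all control peaks, with a median difference of 0.18 against -0.05. In detrained muscle 28 of 41 (68.3%) were higher in Ex1 than in Ex2, against 59% of all detrained peaks, with medians of 0.12 and 0.05. The 21 other macrophage markers were higher in C2 at 51 of 64 control peaks (79.7%) and higher in Ex1 at 28 of 53 detrained peaks (52.8%). Maf supplied 31 of those 64 control peaks and 25 of those 53 detrained peaks, and peaks of the same gene are not independent. Peaks of the 14 other lymphocyte markers leaned the other way in control, with 7 of 32 (21.9%) higher in C2 and a median of -0.30. Those 32 peaks were named for 8 of the 14 genes, with 14 at Cd28 and 8 at Cd247, so few genes carry that lean. The widely expressed regulators did not lean either way in control, with 26 of 55 (47.3%) higher in C2. Muscle fibre markers leaned the other way in control, with 5 of 39 peaks (12.8%) higher in C2, as did the endothelial markers, with 12 of 49 (24.5%). In detrained muscle 41 of 49 endothelial peaks (83.7%, median 0.32) and 22 of 36 muscle fibre peaks (61.1%) were higher in Ex1, so the lean towards Ex1 was not particular to immune genes. Fibroblast markers, with 29 of 48 control peaks (60.4%), and satellite cell markers, with 4 of 5, leaned towards C2 as the immune genes did. The part of differing cell content between the muscles in these values was not tested. On the density scale, over the 21 shared peaks of these genes, the median of C2 minus C3 was 0.06 and the median group change -0.08.

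**Figure D4:**
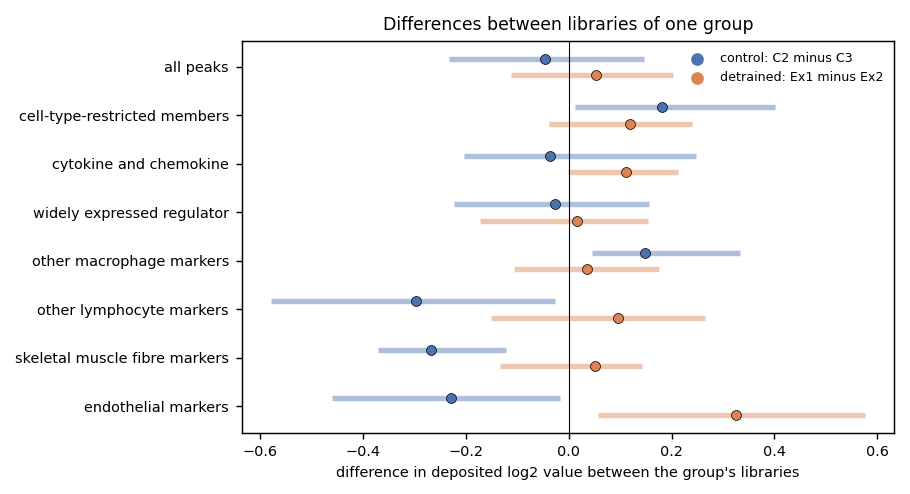
Difference in the deposited log2 value between the libraries of a group, C2 minus C3 for control and Ex1 minus Ex2 for detrained muscle, for peaks of each gene list; points are medians and bars the middle range from lower to upper quartile. The cell-type-restricted immune genes have medians of 0.18 and 0.12, and the muscle fibre markers have a negative median in control.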

How the data were processed

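H3K27ac libraries of quadriceps were compared between 2 control and 2 detrained samples, with 1 input per group. Alignment by the authors used Bowtie and mm10, and their HOMER peaks were called on the pooled libraries of each group. The deposited pooled signal of a peak is the tags of both libraries per 10000000 total tags, and the deposited log2 values per library were regularized by the authors with DESeq2 within HOMER, to total tags, within 1 table. The authors' fold over input and adjusted p-value per peak served only to keep stricter peaks in an alternative. Columns C2 and C3 count as control without a match to a numbered sample.

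The tags of each library were estimated by sharing the pooled tags in proportion to library totals and log2 values, which understates differences at weak peaks. Density was (tags + 0.5) per kb per 10000000. A shared peak was a unique pair in which 50% or more of each peak was covered, and one counted as apart when it differed at least 2-fold with no overlap between the groups' libraries. The starts were those of GENCODE M21, whose mm10 positions lay within 100 bp of the start implied by 209 of 223 rows. The steps were tested on simulated data. Python 3.11.15, numpy 2.4.6 and pandas 2.3.3 were used.

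The genes and lists were chosen with earlier results of these data known, and the analysis of gene starts, the limit of 100 tags and the promoters printed were chosen after seeing the data. Values in every library were given, by rule, for the shared peak with an annotated promoter in both lists, the 3 restricted genes of highest density percentile and the 3 largest differences in each direction, and up to 4 genes of other lists were given by their densest pooled peak. Other genes named with values were chosen after their values were seen. A gene that the rule for other lists would name is not reported here.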

Additional observations from a re-analysis of the deposited data

How the results depend on the processing

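The number of genes named was within 1.5 times of the reported count under 5 of 6 alternatives in each list, and promoter-annotated peaks alone named 5 in control and 3 in detrained muscle. The median change at shared peaks turned from -0.07 to 0.11 on tags per peak, 0.041 when 80% or more of both peaks had to be covered and 0.34 on the deposited log2 values, which were normalized separately, and leaving out 1 library gave -0.15 (without Ex1) to 0.0050 (without Ex2). Peaks at least 2-fold apart without overlap numbered 0 as reported, 2 on tags per peak and 1 at 1.5-fold. The median best density percentile of 59.5 in control was 84.0 with promoter peaks alone, and that of 52.8 in detrained muscle was 61.5 on tags per peak and 25.1 with promoter peaks alone. By distance of the centre the promoter share became 15.9% in control and 17.3% in detrained muscle, and stricter control peaks gave 10%. Stricter peaks gave 4 starts marked in the detrained list alone in place of 7, and the other 4 alternatives, chosen after seeing the data, gave 7 or 8 against 1. The genes changed: a start inside the peak added Ccl2 and Cd68 and dropped Itgax, with Laptm5 as the control gene, and a limit of 30 pooled tags put Ccl2 and Lyz2 in place of Itgam and Itgax, with Lck as the control gene. Cd14 and Itgb2 were among them under all 5 alternatives. What caused these shifts was not tested here. No paired analysis was made, because no result comes from a test and no pairing of control with detrained mice is described. The paper states that mice were put at random into cages that had wheels or none. Weak peaks limit these comparisons, since a start without a listed peak was not measured.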
